A study of Mus musculus with 154 samples.

Results

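The genes described here are those of small nucleolar RNAs (snoRNAs), small Cajal body RNAs (scaRNAs) and small nuclear RNAs (snRNAs) in mouse liver. They were taken as all genes of the count table to which the GENCODE vM21 annotation gives the type snoRNA, scaRNA or snRNA. These were 81 of the 13289 genes in the table, namely 61 snoRNA, 9 scaRNA and 11 snRNA genes. The annotation holds 2943 genes of these types, of which 1507 are snoRNA, 51 scaRNA and 1385 snRNA genes.

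The study compared chromosome substitution strains (CSSs) with the control strain B6 (C57BL/6J) to measure how far the effect of 1 substituted chromosome depends on a second. Liver RNA of male mice of 24 strains, killed at 5 weeks of age after an overnight fast, was sequenced with 1 library per mouse. Strain B6 had 20 mice. The 8 single CSSs were heterozygous for 1 chromosome of strain A/J on the B6 background, either chromosome 3, 6, 14 or 17 through the dam, as in (B6.A3 x B6)F1, or chromosome 4, 5, 8 or 10 through the sire, as in (B6 x B6.A4)F1. They had 8 mice each, except 7 with chromosome 5. The 15 double CSSs were heterozygous for 1 A/J chromosome from each parent and had 5 mice each, except 3 in (B6.A3 x B6.A8)F1, 4 in (B6.A17 x B6.A4)F1, (B6.A6 x B6.A5)F1 and (B6.A17 x B6.A10)F1, and 6 in (B6.A6 x B6.A8)F1. Strains are written with the dam first, while the labels list the sire first. A main effect is the log2 fold change of a single CSS against B6 and is named by its chromosome, as in A8. An interaction, as in A14:A8, is the log2 difference between a double CSS and the sum of its main effects, so that 0 means additivity. Because an entire chromosome was exchanged and each mouse kept a B6 copy of it, an effect points to no single allele, and recessive effects could not be seen.

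A snoRNA is held in a protein complex that modifies ribosomal RNA. Box C/D snoRNAs carry the short C and D boxes near their ends and guide ribose methylation, while H/ACA snoRNAs end in an ACA tail and guide the change of uridine to pseudouridine. scaRNAs do the same for snRNAs inside Cajal bodies of the nucleus, and snRNAs such as U1, U2, U4 and U5 are the RNA core of the spliceosome, where U1 pairs with the start of an intron and U2 with its branch point. In mammals most snoRNAs are cut out of introns of a host gene, which often encodes a protein of the ribosome or of translation, whereas snRNAs and a few snoRNAs, such as U13, are transcribed from genes of their own. None of them carries a poly(A) tail, so they are read in libraries made from total RNA.

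The sequences of the genes on which the results turn show how alike some of them are and how the classes differ. They are those of the annotated genes on the transcribed strand of GRCm38 (mm10), from GENCODE vM21. Gm22513, a gene of the U1 type on chromosome 12 (chr12:54696782-54696945, + strand, between genes), is shown with the stretch that pairs with intron starts in capitals.
Gm22513: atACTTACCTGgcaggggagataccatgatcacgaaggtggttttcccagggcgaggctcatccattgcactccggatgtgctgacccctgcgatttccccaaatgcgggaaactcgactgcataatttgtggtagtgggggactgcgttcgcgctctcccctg

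Gm25939 (chr1:72255008-72255198, + strand, in an intron of the noncoding gene D230017M19Rik) and Gm25360 (chr1:72226240-72226430, + strand, between genes) are of the U2 type, and Gm24407 (chr5:115490254-115490394) and Gm24265 (chr5:115489459-115489599), both on the + strand between genes, are of the U4 type. Capitals mark the bases at which the members of each pair differ. Counted from 1 at the first base, these are T69C, G95A and T154C from Gm25360 to Gm25939, and G88A and C99A from Gm24265 to Gm24407. A read of 50 bases that spans none of these positions could not be assigned to one copy, so the values of U2-type and U4-type genes are uncertain as to which copy they belong to.
Gm25939: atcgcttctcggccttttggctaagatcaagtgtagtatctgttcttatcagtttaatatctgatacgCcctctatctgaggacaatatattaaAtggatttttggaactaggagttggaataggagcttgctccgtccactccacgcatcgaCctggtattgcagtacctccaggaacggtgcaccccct
Gm25360: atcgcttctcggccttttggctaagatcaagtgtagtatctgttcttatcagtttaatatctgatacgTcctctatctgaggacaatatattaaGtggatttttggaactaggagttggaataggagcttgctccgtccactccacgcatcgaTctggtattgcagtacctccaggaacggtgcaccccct
Gm24407: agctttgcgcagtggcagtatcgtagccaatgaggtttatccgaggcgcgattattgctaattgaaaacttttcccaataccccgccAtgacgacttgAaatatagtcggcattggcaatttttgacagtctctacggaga
Gm24265: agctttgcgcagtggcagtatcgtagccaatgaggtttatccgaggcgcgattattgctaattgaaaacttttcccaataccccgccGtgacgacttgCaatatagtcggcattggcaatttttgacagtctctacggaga

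Snord49b (chr11:62603079-62603150, + strand, in an intron of 2410006H16Rik), the gene with the largest spread between mice, is shown with the letters of the C box (TGATGA) and the D box (CTGA) in capitals.
Snord49b: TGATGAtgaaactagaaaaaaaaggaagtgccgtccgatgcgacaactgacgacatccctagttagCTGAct

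Snora73b (chr4:132352322-132352526, - strand, in an intron of Rcc1), Gm25117 (chr10:111481493-111481636, + strand, in an intron of Nap1l1), Gm22442 (chr11:69350518-69350661, - strand, in an intron of Chd3) and Scarna13 (chr12:105031075-105031349, - strand, in an intron of Snhg10) are shown with the ACA of the tail, which stands 3 bases before the end, in capitals.
Snora73b: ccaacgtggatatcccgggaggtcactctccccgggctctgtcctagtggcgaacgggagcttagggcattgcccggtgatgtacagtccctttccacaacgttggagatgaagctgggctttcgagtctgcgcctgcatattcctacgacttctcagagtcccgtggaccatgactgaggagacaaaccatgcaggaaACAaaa
Gm25117: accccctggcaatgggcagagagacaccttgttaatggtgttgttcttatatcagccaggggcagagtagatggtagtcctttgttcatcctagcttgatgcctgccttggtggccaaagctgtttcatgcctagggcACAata
Gm22442: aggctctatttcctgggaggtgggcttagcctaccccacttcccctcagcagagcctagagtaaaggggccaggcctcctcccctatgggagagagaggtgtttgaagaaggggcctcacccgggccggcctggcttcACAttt
Scarna13: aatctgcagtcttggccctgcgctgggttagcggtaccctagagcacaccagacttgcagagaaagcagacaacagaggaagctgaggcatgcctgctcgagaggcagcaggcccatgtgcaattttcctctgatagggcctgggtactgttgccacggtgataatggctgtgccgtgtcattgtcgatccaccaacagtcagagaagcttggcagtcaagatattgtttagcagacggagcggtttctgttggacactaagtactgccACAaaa

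Letters were searched on the transcribed strand only. TGATGA in the first 20 bases together with CTGA in the last 20 was present in 15 of the 61 snoRNA genes (24.6%), against 20.3% of the 1446 other annotated snoRNA genes. ACA followed by 3 bases at the end was present in 35 of the 61 (57.4%), against 16.7% of the others. Of the 11 snRNA genes, 1 held ACTTACCTG in its first 20 bases, against 3.94% of the 1372 other annotated snRNA genes, and 4 held GTAGTA, the letters of U2 that pair with the branch point, in the first 50, against 2.55%. A match describes the letters only.

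The 81 genes were between 65 and 414 bases long, with a median of 134. On the same strand, 52 lay in an intron of another gene, 11 overlapped an exon and 18 lay between genes. For the 11 that overlapped an exon, reads of the small RNA and of the host transcript could not be told apart. Gm22579, an snoRNA gene in Taf1d, shares its whole sequence with 1 other annotated gene.

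Each library held between 4638701 and 30465477 counted reads. The 81 genes together received 0.111% of all counts. The deposited counts were expressed as CPM, the count of a gene relative to all counts of its library, with library sizes scaled by the TMM method. In 50 of the 81 genes the count of at least 1 library exceeded the number of start positions that a 50-base read can take over the gene, so the deposited counts were not limited to 1 read per position. All 7 hepatocyte markers examined were present, with summed levels of 88256 to 142831 CPM in B6 and 49678 to 99281 CPM in (B6 x B6.A8)F1, where 4 of them were lower. Only 1 of 5 pancreas markers, Cela1, and 2 of 5 lymphocyte markers were in the table, and Krt19, a bile duct keratin, was not. Cela1 was at 3.27 to 6.43 CPM in B6 and 5.14 to 8.30 CPM in (B6 x B6.A8)F1, and was higher with A8 (log2 fold change 0.62, edgeR adjusted p = 0.000148) and with A14 (0.56, adjusted p = 0.000443). The defining markers Prss2, Cpa1, Pnlip and Ctrb1 were not in the table, and the part of such cells in the results was not tested. In bulk liver RNA, fewer cells of a type and less RNA per cell cannot be told apart. One library labelled (B6.A14 x B6.A4)F1 and male had 2.94 CPM over 4 Y-linked genes, against 228 to 432 CPM in the others. It was kept as labelled. Without it, 57 of the 81 genes were called with A8 in place of 64, 35 with A14 in place of 45, 26 with A10 in place of 28, 28 in A14:A8 in place of 35 and 45 in A6:A8 in place of 47, and larger changes are given beside the results.

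The levels of the 81 genes spanned a wide range. Their mean over all mice had a median of 4.21 CPM and lay between 0.680 and 106 CPM, and 63 of the 81 reached 15 counts in at least 75% of the mice. Of their summed CPM, snoRNAs made up 50.1%, scaRNAs 21.9% and snRNAs 28.1%, and the 5 genes with most counts held 32.8%. Per kilobase of gene, the highest mean levels were those of Snora73b, a U17-type H/ACA snoRNA (518.1 CPM per kilobase), and of the U4-type genes Gm24407 (512 CPM per kilobase) and Gm24265 (470 CPM per kilobase). They were followed by the scaRNA Gm22442 (344 CPM per kilobase), the box C/D snoRNA Snord22 (314 CPM per kilobase) and the U1-type Gm22513 (309 CPM per kilobase). The lowest was the snoRNA Gm23105, in Pawr (6.09 CPM per kilobase). Rnu11 and Rnu12, the U11 and U12 RNAs of the minor spliceosome, were at 13.3 and 8.39 CPM per kilobase.

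Mice of one strain differed in these genes far more than in most others. The SD of log2 CPM about the strain mean had a median of 0.62 over the 81 genes, against 0.23 over all genes. Among genes of like level (1.70 to 14.8 CPM), it was 0.62 for 41 of the 81 and 0.27 for the 5546 other genes. The dispersion of the gene exceeded that expected at its level in 79 of the 81 (97.5%), against 23.1% of all genes. The spread was largest in Snord49b (1.18), with a lowest, median and highest B6 level of 0.144, 1.44 and 6.74 CPM, in Gm26202, an snoRNA gene in Rpl17 (1.01), and in Gm25099, a U5-type gene (0.95). It was smallest in the scaRNA Gm22009 in Kpna4 (0.27), with 43.6, 57.6 and 78.9 CPM in B6, in the snoRNA Gm23455 in Taf1d (0.33) and in Scarna2 (0.34). By class, the median SD was 0.63 for snoRNAs, 0.63 for snRNAs and 0.36 for scaRNAs. By length, it was 0.84 for the 14 genes under 100 bases, 0.62 for the 58 from 100 up to 200 bases and 0.45 for the 9 of at least 200 bases. These groups also differed in level. In the same order, the median level was 3.18, 14.84 and 23.52 CPM by class, and 1.46, 4.58 and 34.99 CPM by length. The median ratio of dispersion to that expected at the level was 4.96, 8.97 and 2.49 by class, and 6.63, 4.85 and 4.81 by length. The part of level in these differences of SD was not tested.

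The 81 genes varied together between mice of one strain. After the strain means were removed, the correlation between pairs of them had a median of 0.52 over 3240 pairs and all mice, with 13 pairs below 0, while pairs drawn from all genes had a median of -0.002. The first principal component held 55.6% of their variance and the second 12.1%. The closest pair was Gm24265 and Gm24407 (r = 0.99), whose reads could be assigned to either copy. Other close pairs were Gm25492, an scaRNA in Bud23, with Gm25788, an snoRNA in Pabpc4 (0.91), Gm24265 with Snord22 (0.91) and the neighbours Gm25395 and Scarna6, which lie in introns of Atg16l1 (0.90). Gm24339, an snoRNA in Cep295 with the lowest mean of the 81 (0.680 CPM), took part in the lowest correlations, down to -0.08 with Gm23105. These correlations are across mice and across genes of the same libraries, which share depth, RNA quality and composition, and are a description.

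The 3 genes outside the 81 that followed their summed CPM most closely within strains were short RNAs without poly(A) tails. Rny3 and Rny1, the Y RNAs of Ro particles, had r = 0.79 each, and Rmrp, the RNA of RNase MRP, had r = 0.76. Of the next 17 genes 16 were coding. Other RNAs of the kind were Vaultrc5, a vault RNA, with 0.71, and, below the first 20 genes, Terc, the telomerase RNA, with 0.58, Rpph1, the RNase P RNA, with 0.56, and Rn7sk, the RNA that holds back elongation by RNA polymerase II, with 0.51. The long nuclear RNAs Malat1 (-0.06) and Neat1 (-0.01) and the albumin gene Alb (-0.25) had values near or below 0. Among coding genes, Atp5j2 (0.72), a subunit of ATP synthase, and Rpl41 (0.72), of the ribosome, ranked highest, and the splicing factor gene Sf3b3 (-0.58) and Celf1 (-0.56) ranked lowest. The 200 coding genes with the highest r had a median exonic length of 1794 bases, the 200 with the lowest 7290 bases, and all 11889 coding genes 4557 bases.

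**Figure D1:**
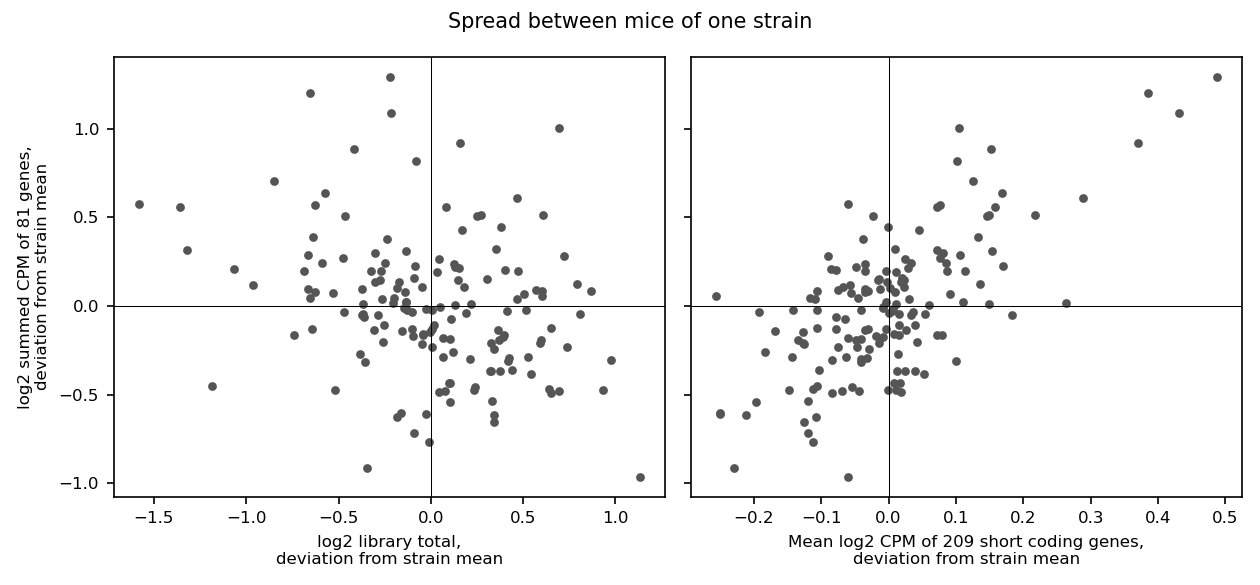
Each point is 1 mouse. The vertical axis is the log2 summed CPM of the 81 genes as deviation from the strain mean, the left horizontal axis the log2 library total and the right one the mean log2 CPM of 209 short coding genes, both as deviation from the strain mean. The sum falls with the library total (r = -0.29) and rises with the short coding genes (r = 0.69).

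The plot of deviations within strains shows that the summed level moved with the library total and, more closely, with the level of short coding genes. Its correlation with the log2 library total was -0.29 over all mice (-0.25 without the 2 farthest libraries, -0.55 among the 20 B6 mice). Its correlation with the mean log2 CPM of 209 coding genes under 1000 bases of exon was 0.69, and with that of 5314 coding genes of at least 5000 bases -0.53. With the percentage of counts from mitochondrial genes it was 0.53, and with that from ribosomal RNA 0.15. The part of RNA quality or size selection in these relations was not tested. When the log2 library total was fitted as a term beside the strain means in edgeR (quasi-likelihood F-test), 25 of the 81 genes were lower in larger libraries and 0 higher, while 1.35% of all genes were called in either direction 1.0% lower and 0.346% higher. The median slope was -0.28 log2 units per doubling of the library, with 76 of 81 negative, against 0.00 over all genes. The steepest slope was that of Snord49b (-1.21, SE 0.18, adjusted p = 5.38e-07), and the smallest p-value that of Gm24727, an snoRNA in Gsr (slope -0.80, SE 0.09, adjusted p = 9.93e-11). Gm24494, in Rabggtb (-0.73), Gm25791, in Taf1d (-0.45), and Gm22486, named Snord94 by RefSeq (-0.38), were also lower in larger libraries. Without the 2 libraries with totals farthest from the median the count was 9, and with 5 surrogate variables added it was 3.

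**Figure D2:**
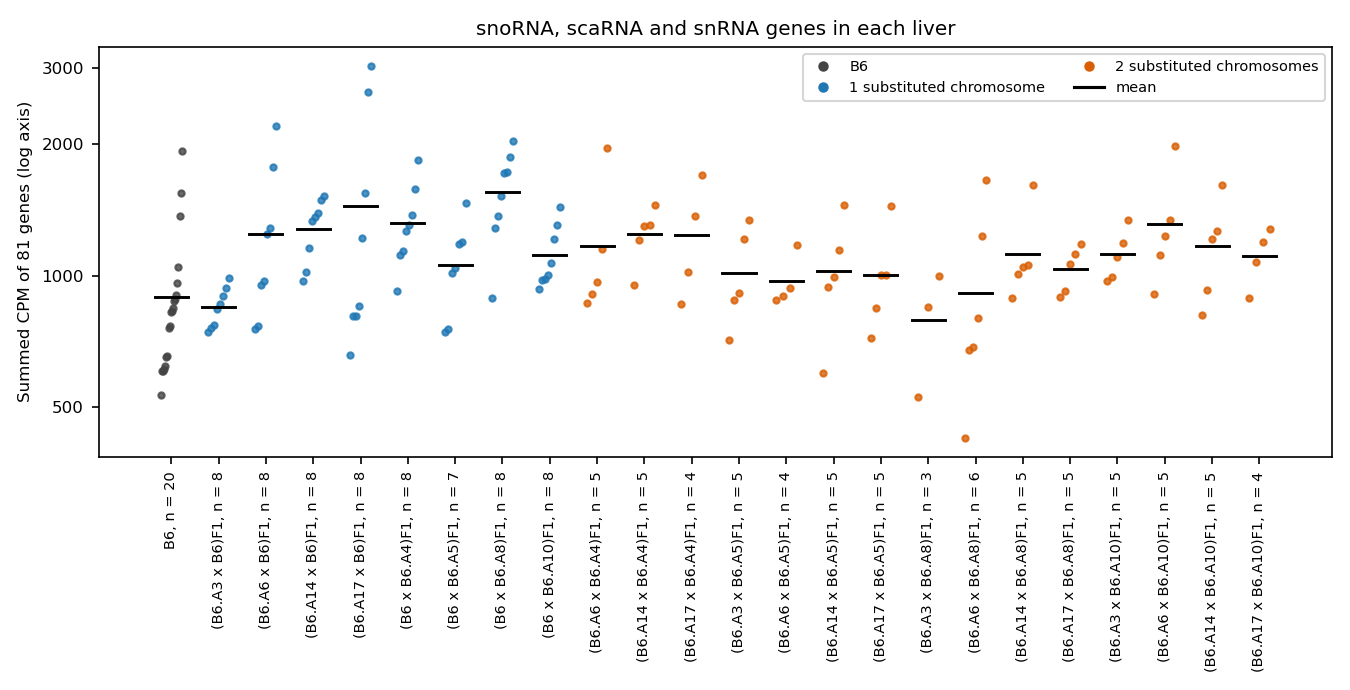
Each point is 1 mouse, the vertical axis is the summed CPM of the 81 genes on a log scale, and the horizontal axis gives the 24 strains with their numbers of mice. Black bars are means. The B6 mice lie between 534 and 1934 CPM around a mean of 892 CPM, and the mean of (B6 x B6.A8)F1 is 1554 CPM.

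The summed level differed between strains by less than the spread between mice, as the plot of summed CPM by strain shows. The SD of log2 summed CPM within strains was 0.43, and that of the 24 strain means 0.23. The sum was 892 ± 354 CPM in B6 (SD, n = 20; lowest 534, median 828, highest 1934). The highest means were 1554 ± 367 CPM for A8 alone (SD, n = 8; lowest 887, median 1623, highest 2036) and 1445 ± 908 CPM for A17 alone (SD, n = 8). With A17 the median was 1035 CPM and the highest mouse had 3030 CPM, so its mean rested on a few mice. The lowest means were those of (B6.A3 x B6.A8)F1 with 527.3, 849 and 1001 CPM in its 3 mice, and of the A3 single CSS with 850 ± 88.6 CPM (SD, n = 8). Among double CSSs with A8, the means were 792, 913, 1124 and 1038 CPM with A3, A6, A14 and A17. The ranges of all strains overlapped that of B6. On the log2 scale the mean of (B6 x B6.A8)F1 was 0.85 above that of B6.

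For main effects on single genes, the quasi-likelihood F-test of edgeR was applied in a model of 8 main effects, 15 interactions and 5 surrogate variables fitted to all 13289 genes. The question was which substituted chromosomes alter the levels of these RNAs. All main effects are measured against the same 20 B6 mice, so they are not independent of each other. Nor are the 81 genes, which varied together between mice (median pair correlation 0.52). A count of calls is therefore not a count of separate changes. Every call among the 81 genes was an increase. With A8, 64 of the 81 genes were higher and 0 lower, where 12.9% of all genes were higher and 29.6% were called in either direction. With A4, 59 were higher (13.5% of all genes called in either direction, 7.6% higher), with A14 45 (22.5% called, 9.98% higher), with A10 28 (6.64% called, 3.66% higher) and with A6 14 (8.09% called, 4.3% higher). With A17, 1 was higher (3.67% called, 1.71% higher), and with A5 1 (0.768% called, 0.452% higher). With A3 0 of the 81 were called by edgeR, 1 had an unadjusted p-value under 0.05, and 3.7% of all genes were called (1.94% higher).

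The median log2 fold change of the 81 genes was 0.85 for A8, 0.84 for A4, 0.66 for A10, 0.58 for A14, 0.48 for A6, 0.36 for A5, 0.32 for A17 and 0.03 for A3. With 10 surrogate variables it was 0.40 for A8, 0.71 for A4, 0.56 for A10, 0.29 for A14, 0.23 for A6 and 0.04 for A17. In the same order it was 0.96, 0.69, 0.44, 0.63, 0.57 and 0.74 with 0 surrogate variables. With the mean level of the short coding genes as a covariate it was 0.44, 0.56, 0.58, 0.23, 0.16 and 0.07. The median of all genes stayed within 0.03 of 0 under every setting tried, where the scaling of library sizes holds it. The classes did not move alike. With A8, 48 of 61 snoRNA, 7 of 9 scaRNA and 9 of 11 snRNA genes were higher. With A14, 32 snoRNA, 8 scaRNA and 5 snRNA genes were higher. With A4, these were 47 snoRNA, 2 scaRNA and 10 snRNA genes, and the median of the scaRNA genes was 0.26 where that of the snRNA genes was 0.94. With A10, they were 22 snoRNA, 0 scaRNA and 6 snRNA genes, with medians of 0.71, -0.01 and 0.76. The difference between classes was not tested.

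**Figure D3:**
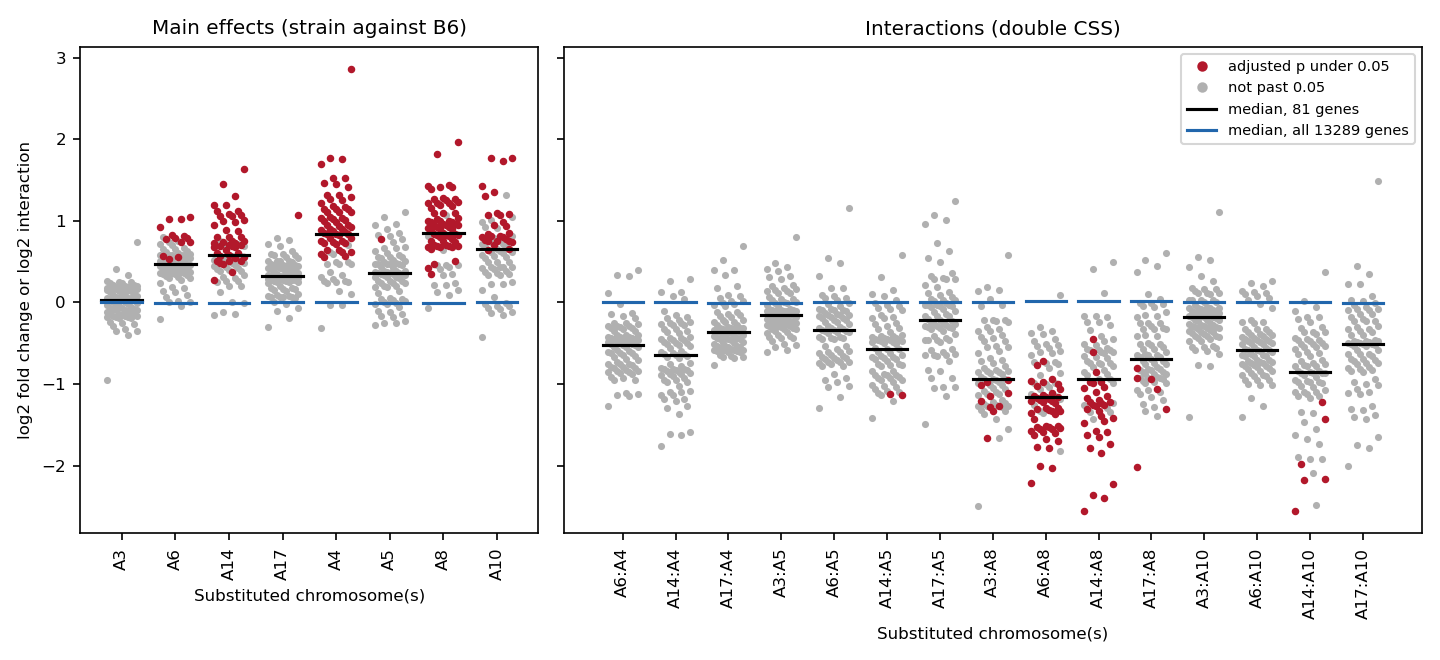
Each point is 1 of the 81 genes. The left panel gives the log2 fold change of each single CSS against B6, and the right panel the log2 interaction of each double CSS. Red points passed an adjusted p of 0.05, black bars are medians of the 81 genes and blue bars those of all 13289 genes. Every red point lies above 0 on the left and below 0 on the right.

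With A8, the largest change was that of Snord13 (U13), a snoRNA with a gene of its own on chromosome 8. Its level was 1.25, 3.96 and 17.6 CPM in B6 (lowest, median and highest) and 11.8, 17.2 and 27.8 CPM in (B6 x B6.A8)F1. All mice of this CSS were above the B6 median, and the ranges overlapped. The log2 fold change was 1.97 (SE 0.32, edgeR adjusted p = 2.54e-07). Scarna6, an scaRNA in Atg16l1, was at 9.31, 16.3 and 31.3 CPM in B6 and 18.3, 37.96 and 49.9 CPM in (B6 x B6.A8)F1, with a log2 fold change of 0.94 (SE 0.18, adjusted p = 1.05e-05). Gm25117, which ends in an ACA tail, was at 4.85, 9.08 and 26.6 CPM in B6 and 12.6, 24.1 and 26.9 CPM in (B6 x B6.A8)F1, with 1.10 (SE 0.21, adjusted p = 1.43e-05). In both genes the lower mice of the CSS lay within the B6 range.

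The RNAs with most counts moved likewise with A8. Snora73b was at 52.6, 79.5 and 224.3 CPM in B6 and at 87.5, 150 and 171 CPM in (B6 x B6.A8)F1, with a log2 fold change of 0.67 (SE 0.15, edgeR adjusted p = 0.000317). The U4-type Gm24407 was at 25.8, 49.5 and 144 CPM in B6 and 44.8, 109 and 161 CPM in the CSS (0.90, SE 0.26, adjusted p = 0.00447). The U2-type Gm25939 was at 21.4, 33.0 and 80.1 CPM in B6 and 31.4, 75.3 and 102 CPM in the CSS (1.09, SE 0.24, adjusted p = 0.0002). For each of the 3 genes the median of the CSS was above that of B6 and the ranges overlapped.

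The calls with A8 depended on how variation between libraries was modelled. Leaving out single mice of (B6 x B6.A8)F1 or B6 kept the count between 59 and 67. These fits kept the surrogate variables and dispersions of the full fit, so they do not show how far the count depends on them. A full refit without the library that lacks Y-linked counts, of another strain, gave 57. With 10 surrogate variables, 2 of the 81 genes were called with A8, Snord13 and Scarna6, where 9.20% of all genes were called. With the mean level of short coding genes as a covariate, chosen after the data were seen, 6 were called, Snord13, Scarna6, Snord17, Gm22486, Gm24044 and Gm22270, where 13.8% of all genes were called. The same short coding genes had a median log2 fold change of 0.11 with A8, 0.10 with A14, 0.10 with A6, 0.03 with A4 and -0.02 with A10. Counts from mitochondrial genes were 8.66% ± 1.46 of the total in B6 (SD, n = 20), 14.6% ± 3.83 with A8 (SD, n = 8) and 13.4% ± 2.91 with A14 (SD, n = 8), but 7.998% ± 1.93 with A4 (SD, n = 8) and 6.94% ± 1.13 with A10 (SD, n = 8). With the covariate, 2 genes were called with A14 (Scarna13 and Snord13), 1 with A6 (Snora23), 20 with A4 and 29 with A10, where 8.82%, 2.96%, 7.71% and 7.53% of all genes were called. With 10 surrogate variables these were 2, 0, 23 and 25, where 5.96%, 3.01%, 2.71% and 8.04% of all genes were called. Of the 29 genes called with A10 under the covariate, 27 were among the 28 called without it. The part of RNA quality in the A8, A14 and A6 calls was not tested.

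With A4, the gene with the largest change was Snord55, a box C/D snoRNA gene that lies on chromosome 4. Its level was 0, 0.47 and 2.21 CPM in B6 (lowest, median and highest) and 0.958, 2.50 and 8.98 CPM in (B6 x B6.A4)F1. Its log2 fold change was 2.86 (SE 0.38, edgeR adjusted p = 3.06e-10), and it was called under every setting in which it was tested, at 2.32 to 2.85. It did not pass the filter of 15 counts in 75% of mice. Among double CSSs with A4, Snord55 was at 0.645, 0.91, 1.49, 3.63 and 12.04 CPM in (B6.A6 x B6.A4)F1, at 2.15, 2.44, 3.46, 3.64 and 5.30 CPM in (B6.A14 x B6.A4)F1 and at 1.32, 2.02, 2.21 and 10.2 CPM in (B6.A17 x B6.A4)F1. The 4 strains that carry A4 had the highest mean levels of Snord55 of the 24, between 3.40 and 3.95 CPM, against 0.483 to 1.89 CPM in the others. In 2 of these crosses 1 mouse lay far above the others (12.04 CPM with A6 and 10.2 CPM with A17). The rank of these 2 means rests on those mice, and lower mice overlapped the B6 range in both.

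Of the 6 members on chromosome 4, all were higher with A4. These were Snord55, the neighbouring snoRNA genes Gm25788 (log2 fold change 0.90) and Gm22154 (0.72) in introns of Pabpc4, whose sequences differ at 4 bases, Snora73b (0.56, SE 0.14), the U5-type Gm25099 (1.29, SE 0.34) and Rnu11 (0.94, SE 0.25). Genes on other chromosomes rose with A4 as well, such as Snord13 (1.77, SE 0.29, adjusted p = 1.16e-05), from 3.96 to 13.7 CPM in the median, and Gm25117 (1.04, SE 0.19, adjusted p = 7.56e-05). With 0 surrogate variables 37 of the 81 genes and 10.3% of all genes were called with A4.

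With A14, Scarna13 had the smallest p-value. It was at 9.39, 12.8 and 25.1 CPM in B6 and 17.4, 22.6 and 30.3 CPM in (B6.A14 x B6)F1, with a log2 fold change of 0.74 (SE 0.13, edgeR adjusted p = 3.39e-06), and all mice of the CSS lay above the B6 median. Gm22442 was at 34.0, 39.9 and 81.2 CPM in B6 and at 44.8, 71.7 and 81.5 CPM in the CSS (0.70, SE 0.13, adjusted p = 3.14e-05), and the ranges overlapped. Gm25117 changed by 0.996 (SE 0.19, adjusted p = 4.32e-05). With 10 surrogate variables, the log2 fold changes of Scarna13 and Gm22442 were 0.33 and 0.35 and did not pass (adjusted p = 0.0617 and 0.0843).

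With A10, the largest log2 fold changes were those of the snoRNA genes Gm26202 (1.77) and Snord49b (1.76), and the smallest p-values those of a U5-type and a U1-type gene. The U5-type Gm25099 was at 0.479, 2.36 and 19.1 CPM in B6 and 4.39, 7.60 and 14.98 CPM in (B6 x B6.A10)F1, with a log2 fold change of 1.73 (SE 0.35, edgeR adjusted p = 0.000764). The U1-type Gm22513 was at 4.31, 30.6 and 102 CPM in B6 and 37.2, 60.7 and 114 CPM in the CSS (1.30, SE 0.29, adjusted p = 0.00246). All mice of the CSS lay above the B6 median for both genes, and 1 or more B6 mice exceeded the CSS median. Snord13 changed by 1.42 (SE 0.32, adjusted p = 0.00262). With 0 surrogate variables 8 of the 81 genes and 9.87% of all genes were called with A10. Gm25117, on chromosome 10, was the only 1 of 3 members there that was called (0.82, SE 0.20, adjusted p = 0.00194).

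With A6, Snora23, an H/ACA snoRNA in an intron of the import receptor gene Ipo7, was at 1.13, 2.90 and 9.38 CPM in B6 and 2.65, 6.97 and 13.3 CPM in (B6.A6 x B6)F1, with a log2 fold change of 1.03 (SE 0.24, edgeR adjusted p = 0.00274). Gm24119, in the phosphate carrier gene Slc25a3 (0.83, SE 0.22), and Gm25636, in Ipo7 (0.93, SE 0.25), were also higher. Leaving out the library without Y-linked counts, which belongs to another strain, left 8 of the 14 calls with A6. With A17 the gene called was Gm24044, which overlaps an exon of Rpsa, at 0.12, 0.607 and 2.03 CPM in B6 and 0.571, 1.28 and 6.19 CPM in (B6.A17 x B6)F1 (1.07, SE 0.31, adjusted p = 0.0409). With 0 surrogate variables 50 of the 81 genes and 13.02% of all genes were called with A17. With A5 the gene called was Gm22270, in an intron of Rpl5 on chromosome 5, at 0.12, 0.617 and 0.969 CPM in B6 and 0.48, 0.786 and 1.43 CPM in (B6 x B6.A5)F1 (0.78, SE 0.25, adjusted p = 0.0336).

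**Figure D4:**
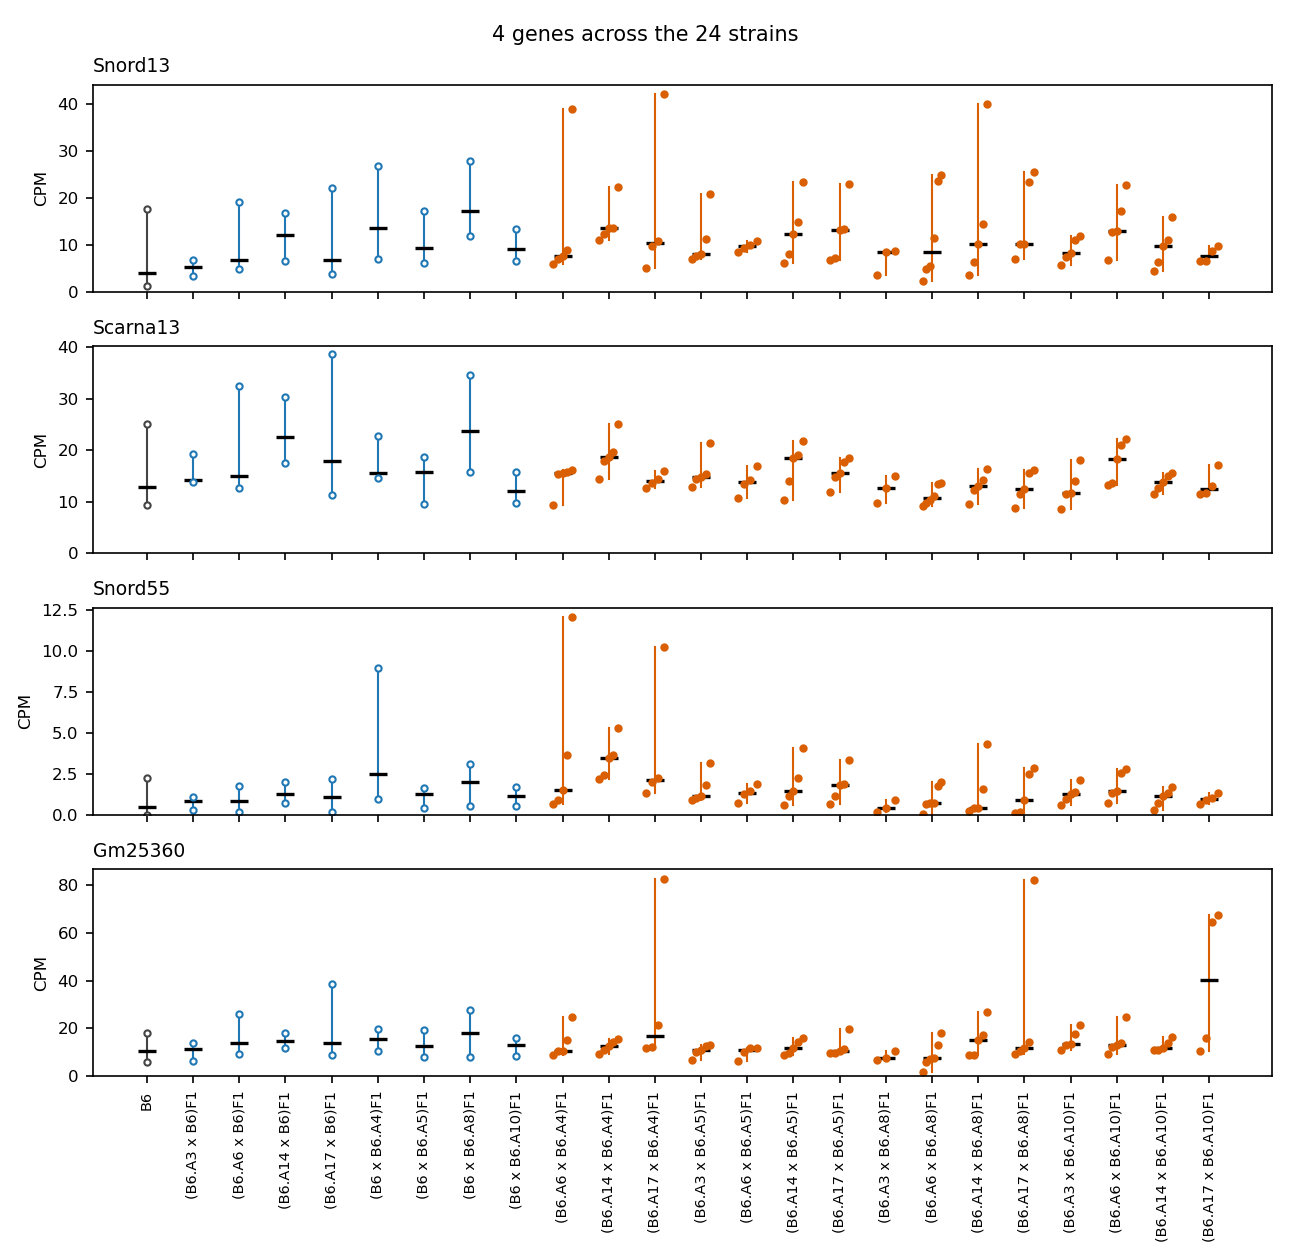
CPM of Snord13, Scarna13, Snord55 and Gm25360 in the 24 strains. Vertical lines run from the lowest to the highest mouse, black dashes are medians, filled points are single mice in groups of up to 6, and open circles mark the lowest and highest mouse in larger groups. The mean of Snord55, not drawn, is highest in strains with A4, in (B6.A6 x B6.A4)F1 and (B6.A17 x B6.A4)F1 through a single mouse each. Single mice of Gm25360 reach 64.6 to 82.8 CPM in double CSSs with A17.

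Small RNAs and the genes that contain them were compared next. For the 60 members whose host was in the table (50 hosts, 12 of the members in ribosomal protein genes), the correlation between member and host within strains had a median of 0.09 and lay between -0.42 and 0.49. It was highest for Snord17 and its host Snx5 (0.49). With A8, these 60 had a median log2 fold change of 0.83 and their hosts -0.01. Of the 60 members 46 were higher, while of their 50 hosts 5 were higher and 13 lower. Of all genes 12.9% were higher with A8 and 29.6% were called in either direction. The member was above its host in 59 of the 60. The exception was Gm22579, whose change was -0.06 where that of Taf1d was 0.11. With A4 the medians were 0.81 and -0.06, with A14 0.58 and -0.00, and with A10 0.67 and -0.07. The 18 members that lie between genes had a median of 0.90 with A8 (15 higher), and the 63 within another gene 0.84 (49 higher).

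**Figure D5:**
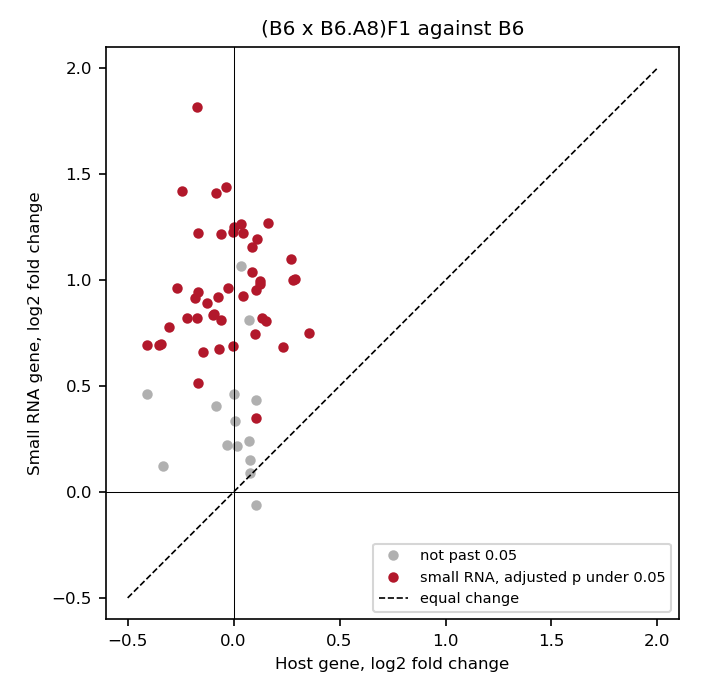
Log2 fold change with A8 of 60 small RNA genes against that of the gene that contains each. Red points passed an adjusted p of 0.05 for the small RNA, and the dashed line marks equal change. Of the 60 points, 59 lie above the line.

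Genes for the proteins that bind or make these RNAs were called in both directions with A8. Of such genes, host genes of snoRNAs and other short or nuclear RNAs together, 17 were higher and 14 lower. This was 26.7% of those in the table, close to the 29.6% of all genes called, so the calls below are a description of single genes. Of 16 proteins particular to single snRNP complexes, 8 were lower and 1 higher. Snrnp200, the helicase that unwinds U4 and U6, had a log2 fold change of -0.52 (SE 0.08, edgeR adjusted p = 2.78e-08), Prpf8, the large core protein of the spliceosome, -0.50 (SE 0.06, adjusted p = 1.25e-09) and Snrpb2, of U2, 0.31 (SE 0.07, adjusted p = 0.000159). Of 12 box C/D proteins and assembly factors, Znhit3 was higher (0.54) and the core protein gene Nop56 lower (-0.41), and of 6 H/ACA genes Nop10 was higher (0.15). In the Sm ring Snrpe was higher (0.27) and Snrpb lower (-0.25), of 7 Lsm genes Lsm8 was higher (0.32), and of 5 Cajal body genes Nolc1 was lower (-0.53). In the SMN complex, which loads Sm proteins onto snRNAs, 3 of 8 were higher, among them Gemin7 (0.23) and Strap (0.13). Of 21 genes of snRNA transcription 4 were higher, led by Ints10 (0.60), and 2 lower, Ints4 (-0.16) and Snapc2 (-0.25). None of 6 genes of cap binding and transport was called. Of 22 genes known as snoRNA hosts, 2 were higher, Snhg14 (0.69) and Eif4a2 (0.29), and 2 lower, Hspa8 (-0.46) and Nop56. Of 8 other short or nuclear noncoding RNAs, 3 were higher with A8, namely Rmrp (0.59, adjusted p = 0.000926), Rn7sk (0.54, adjusted p = 0.00285) and Terc (0.58, adjusted p = 0.00551).

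Interactions were tested in the same model and asked whether a double CSS differed from the sum of its main effects. Each shares its B6 and single CSS mice with other interactions, and the 81 genes are not independent of each other. All calls among the 81 genes were below additivity. In A6:A8, 47 of the 81 genes were called (24.8% of all genes in either direction, 11.4% lower), in A14:A8 35 (32.4%, 14.3% lower), in A3:A8 10 (7.56%, 2.66% lower), in A17:A8 6 (8.68%, 3.73% lower), in A14:A10 6 (4.16%, 1.72% lower) and in A14:A5 2 (4.04%, 1.55% lower). In the other 9 crosses 0 of the 81 were called with edgeR, with between 0 and 27 at an unadjusted p under 0.05 and medians between -0.15 and -0.65. Of all genes, 4.63% were called in A14:A4 (2.05% lower), 1.21% in A17:A4 (0.61% lower), 1.17% in A3:A10 (0.737% lower), 0.542% in A6:A4 (0.309% lower), 0.113% in A17:A10 (0.0753% lower), 0.0527% in A6:A10 (0.0376% lower) and 0.0% in A3:A5, A6:A5 and A17:A5. The medians were -1.15 in A6:A8, -0.94 in A14:A8, -0.93 in A3:A8, -0.85 in A14:A10, -0.70 in A17:A8 and -0.57 in A14:A5. Their size depended on the model. In A6:A8, A14:A8, A3:A8 and A17:A8 they were -0.45, -0.30, -0.47 and -0.14 with 10 surrogate variables. With the short coding genes as covariate they were -0.38, -0.09, -0.29 and -0.16, and with 0 surrogate variables -1.34, -1.18, -1.16 and -1.36.

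Where A8 alone was set against B6 the 81 genes had a median log2 fold change of 0.85, and the double CSSs with A8 had smaller differences from B6. (B6.A6 x B6.A8)F1 differed from B6 by a median of 0.19, where the main effects summed to a median of 1.32, and 80 of the 81 genes were below their sum. (B6.A14 x B6.A8)F1 differed by 0.49 (sum 1.41), (B6.A3 x B6.A8)F1 by 0.01 (sum 0.94) and (B6.A17 x B6.A8)F1 by 0.49 (sum 1.23). Without A8, (B6.A14 x B6.A4)F1 differed by 0.77 (sum 1.36), (B6.A17 x B6.A4)F1 by 0.82 (sum 1.17) and (B6.A14 x B6.A10)F1 by 0.35 (sum 1.23). The percentage of mitochondrial counts in double CSSs with A8 had means of 7.92 to 8.18, and the median interaction of the short coding genes was -0.23 in A6:A8 and -0.22 in A14:A8. Their part in the interactions was not tested.

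In A14:A8, Scarna13 had the smallest p-value of the 81 genes. It was at 12.8 CPM in the B6 median, 22.6 CPM in (B6.A14 x B6)F1 and 23.7 CPM in (B6 x B6.A8)F1, and at 9.55, 12.3, 13.02, 14.1 and 16.3 CPM in the 5 mice of (B6.A14 x B6.A8)F1. All mice of the double CSS lay within the B6 range of 9.39 to 25.1 CPM and below all mice of (B6.A14 x B6)F1. The interaction of Scarna13 was -1.47 (SE 0.22, edgeR adjusted p = 5.08e-08), and it was called under all 8 other models fitted, at -0.60 to -1.66. Gm22442 was at 32.5, 34.1, 42.0, 53.1 and 64.0 CPM in the double CSS, against a median of 39.9 in B6, and had an interaction of -1.31 (SE 0.24, adjusted p = 3.83e-06), and Scarna2, an scaRNA with a gene of its own, of -0.99 (SE 0.21, adjusted p = 4.86e-05). Snord13 was at 3.49, 6.19, 10.1, 14.3 and 40.1 CPM, with 1 mouse above all 8 mice of (B6 x B6.A8)F1, and had an interaction of -1.85 (SE 0.54, adjusted p = 0.00395).

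In A6:A8, Gm24119 had the smallest p-value. Its median was 3.49 CPM in B6, 7.07 CPM in (B6.A6 x B6)F1 and 8.59 CPM in (B6 x B6.A8)F1. In the 6 mice of (B6.A6 x B6.A8)F1 the lowest, median and highest levels were 0.546, 2.43 and 4.45 CPM. The median of the double CSS was below that of B6, and the ranges overlapped. Its interaction was -2.21 (SE 0.40, edgeR adjusted p = 1.42e-05). Scarna13 was at 9.24, 10.7 and 13.5 CPM in the double CSS (-1.11, SE 0.21, adjusted p = 2.93e-05). Snord17, a box C/D snoRNA, was at 17.998, 28.7 and 90.6 CPM, against 22.4, 40.4 and 134 CPM in B6 (-1.60, SE 0.33, adjusted p = 9.08e-05).

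In A3:A8, Scarna13 was at 9.81, 12.7 and 15.01 CPM in the 3 mice of the double CSS, with an interaction of -0.97 (SE 0.24, edgeR adjusted p = 0.00755). Gm22442, at 28.2, 37.2 and 63.9 CPM, had -0.96 (SE 0.26, adjusted p = 0.0131), and Gm22486, at 8.34, 13.6 and 27.2 CPM, had -1.28 (SE 0.37, adjusted p = 0.0188). The medians of the double CSS were below those of B6 in these genes, and the ranges overlapped. The Scarna13 interaction in A17:A8 was -0.92 (SE 0.23, adjusted p = 0.00494), with 8.73, 11.4, 12.4, 15.6 and 16.1 CPM in its 5 mice. In A14:A10, Snord13 was at 4.33, 6.22, 9.79, 10.9 and 15.97 CPM and had -2.17 (SE 0.55, adjusted p = 0.0133).

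The interaction calls depended on the model and, in small crosses, on single mice. With 10 surrogate variables, A6:A8 had 1 call (Gm22973), A14:A8 3 (Scarna13, Gm26202 and Gm24494) and A3:A8 and A17:A8 0, where 3.18%, 11.02%, 0.293% and 0.00753% of all genes were called. In A17:A10 1 gene was then called above additivity, as it was without mouse 3 of that cross. With the short coding genes as covariate these were 4 (Snord17, Gm24119, Snora23 and Gm22270), 1 (Scarna13), 0 and 0, where 8.63%, 15.5%, 0.617% and 0.895% of all genes were called. Without mouse 5 of (B6.A6 x B6.A8)F1 the 47 calls became 31, and leaving out single mice of (B6.A14 x B6.A8)F1 gave 26 to 41. In A3:A8 the 10 calls became 1, 6 and 0 without mouse 1, 2 and 3, and in A17:A8 the 6 calls became 1 without mouse 3. In A14:A10 the 6 calls became 3 without mouse 1 and 2 without mouse 2, 3 or 4, and in A14:A5 the 2 calls became 0 without mouse 1 or 2 and 1 without mouse 4. Without the library that lacks Y-linked counts, A3:A8 had 4 calls, A17:A8 3, A14:A10 2 and A14:A5 0.

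Over all 23 strain coefficients together, 62 of the 81 genes passed (76.5%), where 51.4% of all genes did. The smallest adjusted p-values were those of Snord55 (1.55e-10), Gm25360 (1.05e-07), Scarna13 (2.9e-07) and Snord13 (5.77e-07). Over the 15 interactions together 17 of the 81 passed (21.0%), a smaller share than the 27.4% of all genes. Scarna13 (5.91e-06) and Gm22442 (0.0015) had the smallest adjusted p-values there. With 10 surrogate variables these counts were 41 and 1.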

How the data were processed

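Livers of the mice were profiled by stranded total RNA sequencing with single-end reads of 50 bases, and the flow cell of each library was not given in the sources used here. The authors aligned reads to mm10 with TopHat2 guided by GENCODE vM7, aligned the remainder to a genome individualized for A/J, counted reads per gene with HTSeq, removed duplicate reads as their methods state, and removed low genes and outlier libraries. The deposited values are raw counts for 13289 genes. The version of HTSeq was not given in the sources used here. Of the genes, 47 had no match in GENCODE vM21. The methods state a minimum of 15 counts in 75% of mice, which 63 of the 81 small RNA genes and 11852 genes in all reached.

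Counts were scaled by TMM in edgeR 4.0.16 (R 4.3.3), log2 CPM used a prior count of 2, and 5 surrogate variables came from sva 3.50.0. Coefficients for 8 main effects and 15 interactions were tested by the quasi-likelihood F-test (legacy mode) on all genes, with Benjamini-Hochberg adjustment within each effect, separately for genes on and off the substituted chromosomes, and a threshold of 0.05. The SE of a log2 fold change is its size divided by the square root of F. The script was tested on simulated data. Other models used 0 or 10 surrogate variables, DESeq2 1.42.0 size factors or its Wald test, the filter above, no strata, the log2 library total or the short coding genes as covariate, a threshold of 0.01, and fits without single libraries. Leave-one-out fits kept the dispersions and surrogate variables of the full fit. Correlations are Pearson's, after removal of strain means, with numpy 2.4.6, pandas 2.3.3 and scipy 1.17.1 (Python 3.11.15). Sequences were read with Biopython 1.88 and figures drawn with matplotlib 3.10.9.

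The small RNA genes and the gene lists were chosen with earlier results of these data known. The genes named were the snRNA and scaRNA genes and snoRNA genes with the highest levels, the 3 with the largest and the 3 with the smallest spread, up to 3 by smallest p-value for each main effect and for the 3 crosses with most calls, genes called on the substituted chromosome, 5 in each direction for the library total, up to 2 per list and direction, and the 3 others most alike the summed level. Any other gene named was chosen after its values were seen. The p-values of main effects and interactions are set by the spread between mice of a strain, 1 library each, that 5 surrogate variables left. Those of the library total term are set by the spread without surrogate variables. Some sequences and 1 host gene are not reported here.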

Additional observations from a re-analysis of the deposited data

Results flagged for a closer look

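Of 51 sets of a named gene in a group of 4 to 10 mice and 22 groups of the summed level, 7 held a mouse that stood apart from the rest by Dixon's criterion. All of them were sets of single genes. For sets fixed in advance, chance gives about 1 in 20. The sets here were of genes named in the text, and Gm25360 was chosen after its values were seen. The number of flagged sets can therefore not be set against that rate. Snord55 had 12.04 CPM in the highest mouse of (B6.A6 x B6.A4)F1 and 10.2 CPM in that of (B6.A17 x B6.A4)F1. Scarna13 had 32.5 CPM in the highest mouse of (B6.A6 x B6)F1. Snord17 had 90.6 CPM in the highest mouse of (B6.A6 x B6.A8)F1. Gm25360 had 82.8 CPM in the highest mouse of (B6.A17 x B6.A4)F1, 19.6 CPM in that of (B6.A17 x B6.A5)F1 and 82.3 CPM in that of (B6.A17 x B6.A8)F1.

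In 6 crosses the effect of 1 substituted chromosome differed with the other, by the interaction term of edgeR. The number of the 81 genes for which it did was 47 in A6:A8, 35 in A14:A8, 10 in A3:A8, 6 in A17:A8, 6 in A14:A10 and 2 in A14:A5, all below additivity. Of all genes, 24.8%, 32.4%, 7.56%, 8.68%, 4.16% and 4.04% were called in either direction, and 11.4%, 14.3%, 2.66%, 3.73%, 1.72% and 1.55% lower. In A17:A8 (7.41% of the 81 genes) and A14:A5 (2.47%) the calls were below the share of all genes called in either direction.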

How the results depend on the processing

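Over the 8 main effects the 81 genes gave 212 calls, and over the 15 interactions 106. With 0 surrogate variables the interactions gave 174 calls, with A17 50, A4 37, A10 8, A5 0, A17:A8 50, A14:A10 1 and A14:A5 0 called, and 40 in the joint interaction test. Of all genes, 24.9% were then called in A17:A8, 11.3% in A14:A10 and 4.18% in A14:A5. With 10 surrogate variables there were 53 and 5 calls, with A6 0, A14 2, A17 0, A4 23, A8 2, A3:A8 0, A6:A8 1, A14:A8 3, A17:A8 0, A14:A10 0, A14:A5 0 and A17:A10 1, the last above additivity, with 41 in the joint strain test, 1 in the joint interaction test and 11 in place of 31 for the lists of RNA-binding proteins and related genes. With genes of at least 15 counts in 75% of mice only, there were 129 and 44 calls, with A6 5, A14 15, A17 0, A5 0, A8 40, A3:A8 2, A6:A8 24, A14:A8 13, A17:A8 1, A14:A10 3, A14:A5 0 and 10 in the joint interaction test. With the short coding genes as covariate, chosen after seeing the data, there were 59 and 5, with A6 1, A14 2, A17 0, A4 20, A8 6, A3:A8 0, A6:A8 4, A14:A8 1, A17:A8 0, A14:A10 0, A14:A5 0 and 3 in the joint interaction test. At a threshold of 0.01 there were 118 and 50, with A6 1, A14 19, A17 0, A5 0, A10 7, A3:A8 1, A6:A8 29, A14:A8 19, A17:A8 1, A14:A10 0, A14:A5 0 and 4 in the joint interaction test. Without the (B6.A14 x B6.A4)F1 library that lacks Y-linked counts, A6 had 8, A3:A8 4, A17:A8 3, A14:A10 2, A14:A5 0 and the joint interaction test 11. Of all genes, 8.13% were then called with A6, 5.78% in A3:A8, 6.35% in A17:A8, 3.12% in A14:A10 and 2.69% in A14:A5. With the log2 library total as covariate A14:A10 and A14:A5 had 0, with DESeq2 size factors A14:A10 had 3, and without the 2 strata A5 had 2. Of the 25 genes lower in larger libraries, 3 were called with 5 surrogate variables, 9 without the 2 farthest libraries and 10 at a threshold of 0.01. A stricter threshold lowers these counts by construction. Under the filter, 37 of the 45 genes called with A14 were tested and 15 called, 42 of 47 in A6:A8 were tested and 24 called, 29 of 35 in A14:A8 were tested and 13 called, and all 10 in A3:A8 were tested and 2 called. Apart from the threshold, the cause was not tested. Leaving out single mice gave 59 to 67 calls with A8, 0 to 6 in A3:A8, 31 to 57 in A6:A8, 26 to 41 in A14:A8, 1 to 9 in A17:A8, 2 to 5 in A14:A10 and 0 to 3 in A14:A5, with the mice named above. No named gene that was called changed sign under the other models. The median over the 81 genes did change sign where few or none were called, from 0.03 to -0.05 (0 surrogate variables, and also the filter), -0.08 (10) and -0.19 (short coding genes) with A3, from -0.15 to 0.03 (0) and 0.02 (short coding genes) in A3:A5, from -0.21 to 0.11 (10, and also short coding genes) in A17:A5, from -0.36 to 0.01 in A17:A4 (short coding genes) and from -0.18 to 0.03 (short coding genes) and 0.00 (the filter) in A3:A10. Without mouse 3 of (B6.A17 x B6.A10)F1, 1 gene was called above additivity in A17:A10. No paired analysis was possible because the labels give no replicate numbers. Genes near 1 CPM rest on a few reads in the smaller libraries, so a difference there was often not detectable at this depth.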

Other observations

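Gm25360, a U2-type gene on chromosome 1 chosen after its values were seen, stood high in 4 mice, all of double CSSs with A17. Its level was 82.8 CPM in 1 mouse of (B6.A17 x B6.A4)F1, 82.3 CPM in 1 mouse of (B6.A17 x B6.A8)F1, and 67.6 and 64.6 CPM in 2 mice of (B6.A17 x B6.A10)F1. The next of all mice, of (B6.A17 x B6)F1, had 38.8 CPM. In the 4 mice Gm25360 held 42.7, 46.9, 53.2 and 45.8% of the counts of the 4 U2-type genes, while the next highest share was 20.6%, in a B6 mouse, and the median 12.2%. The other mice of these crosses had 11.99, 12.2 and 21.3 CPM, 9.27, 10.3, 11.8 and 14.5 CPM, and 10.6 and 15.8 CPM. The A17:A10 interaction of Gm25360 was 1.49 (SE 0.40, edgeR adjusted p = 0.0859).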
